A study of Mus musculus with 24 samples.

Results

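The genes described here are 9 members of the hypoxia-inducible factor (HIF) pathway, followed through RNA sequencing of mouse CD4 T cells, the helper class of T lymphocytes. They were picked by symbol, through a mouse annotation of the GRCm38 build, from the 46981 Ensembl identifiers of the deposited expression table, and all 9 were found. They are Hif1a, Arnt, Vhl, Egln1, Egln2, Egln3, Bnip3, P4ha1 and Vegfa. The table has 24 libraries in 8 groups of 3, in 2 cohorts. The Acly cohort holds T cells of mice labelled CD4-Cre Aclyfl/fl (KO), in which Cre under the Cd4 promoter was to delete ATP citrate lyase, and of WT mice. The Pdha1 cohort holds T cells of mice labelled Pdha1fl/fl CD4CreERT2 (KO), in which a tamoxifen-dependent Cre was to delete the E1 alpha subunit of pyruvate dehydrogenase, and of its own WT mice. The labels give no tamoxifen schedule, no age and no allele that the WT mice carry. In each cohort, KO and WT cells were either activated with CD3/CD28 for 24 h or left without stimulus, called resting below. The medium of all cells was RPMI with 15% serum and 2 mM glutamine, and the labels name no change of oxygen.

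HIF is a transcription factor made of an oxygen-labile alpha subunit, such as HIF-1 alpha, and a stable partner, ARNT. When oxygen is present, the prolyl hydroxylases EGLN1, EGLN2 and EGLN3 hydroxylate the alpha subunit, and the ubiquitin ligase built on VHL then marks it for degradation. The hydroxylases also use 2-oxoglutarate and iron, and in T cells HIF-1 alpha is known for driving glycolysis after activation of the T cell receptor. These steps act on protein, whereas all values below are RNA levels.

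Motifs of HIF binding are short, with the core ACGTG or GCGTG. Both cores were searched on both strands, so that CACGT and CACGC count as well, in the 250 bases before the transcript start in RefSeq's GRCm38.p6 promoter table, which held all 9 genes. ACGTG was present in 16.57% of the 32851 promoters of that table, GCGTG in 28.16% and either of them in 38.6%. The promoters of 6 genes are shown because the transcripts of 5 of them (Hif1a, Egln1, Egln2, Egln3, Bnip3) were higher, and that of Vegfa lower, in activated WT cells of the Acly cohort. Capitals mark the cores.
Hif1a (chr12:73907617-73907866, plus strand): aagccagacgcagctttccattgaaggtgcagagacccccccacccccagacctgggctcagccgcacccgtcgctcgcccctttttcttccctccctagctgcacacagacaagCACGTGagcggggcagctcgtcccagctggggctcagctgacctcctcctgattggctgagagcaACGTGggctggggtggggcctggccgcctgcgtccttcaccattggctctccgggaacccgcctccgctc
Egln1 (chr8:124949255-124949504, minus strand): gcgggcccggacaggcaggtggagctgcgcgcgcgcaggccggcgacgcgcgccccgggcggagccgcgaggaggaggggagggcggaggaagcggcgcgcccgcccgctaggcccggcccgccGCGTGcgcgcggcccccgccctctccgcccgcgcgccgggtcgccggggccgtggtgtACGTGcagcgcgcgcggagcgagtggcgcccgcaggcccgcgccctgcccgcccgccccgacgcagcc
Egln2 (chr7:27166803-27167052, minus strand): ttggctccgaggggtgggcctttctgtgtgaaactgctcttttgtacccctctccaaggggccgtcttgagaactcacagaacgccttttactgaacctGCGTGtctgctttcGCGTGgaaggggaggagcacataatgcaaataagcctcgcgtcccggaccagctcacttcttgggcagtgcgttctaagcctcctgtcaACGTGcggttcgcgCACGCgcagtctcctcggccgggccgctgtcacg
Egln3 (chr12:54203875-54204124, minus strand): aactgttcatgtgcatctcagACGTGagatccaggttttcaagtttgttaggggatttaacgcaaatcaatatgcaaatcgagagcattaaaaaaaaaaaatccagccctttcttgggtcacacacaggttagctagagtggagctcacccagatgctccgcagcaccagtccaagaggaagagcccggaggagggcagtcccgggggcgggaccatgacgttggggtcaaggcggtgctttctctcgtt
Bnip3 (chr7:138909507-138909756, minus strand): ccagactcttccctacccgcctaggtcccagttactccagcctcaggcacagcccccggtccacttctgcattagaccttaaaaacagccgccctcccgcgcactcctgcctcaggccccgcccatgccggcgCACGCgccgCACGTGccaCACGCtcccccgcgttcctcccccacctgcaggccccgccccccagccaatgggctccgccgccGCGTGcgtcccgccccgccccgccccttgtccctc
Vegfa (chr17:46032378-46032627, minus strand): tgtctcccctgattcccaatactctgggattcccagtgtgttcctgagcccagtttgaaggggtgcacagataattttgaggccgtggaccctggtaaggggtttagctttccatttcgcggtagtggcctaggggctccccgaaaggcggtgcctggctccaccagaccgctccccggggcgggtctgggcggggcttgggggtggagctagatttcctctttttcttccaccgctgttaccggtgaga
The Hif1a window ends at the RefSeq start, which lies inside the gene span that GENCODE gives. It held 3 matches, of which 2 overlapped in CACGTG, 135 and 134 bases before the start, and the third stood 70 bases before it. Bnip3 held 5 matches, of which 2 overlapped in the same way. Egln1 held 2, Egln2 held 4 at the start shown, and Egln3 held 1, which lay 229 bases before the start. Among the promoters not shown, P4ha1 held 3 matches, and Arnt and a second listed start of Egln2 held 1 each. No core was found in the window of Vhl or in the shown window of Vegfa, while a second listed start of Vegfa held 2. A match is a string in the sequence and was not measured as a binding site.

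The unit is RPM, in which the genes of a library add up to 1000000. Whether replicates are separate animals is not in the labels, so the p-values reflect only how far these samples spread. A library held 388902 to 1087675 recovered counts, so that 1 count was worth 0.677 to 2.28 RPM and the 3 counts that an observed 0 still allows came to 2.03 to 6.83 RPM, for counting error only. CD4 T cell markers were detected in every group, 8 of 8 in each. In activated KO, activated WT, resting KO and resting WT libraries of the Acly cohort their sum ranged over 1324 to 1390, 1793 to 2061, 458 to 562 and 351 to 649 RPM. Receptor genes of smell and pheromone sensing, a measure of background because no role of theirs in T cells is known, together took 31346 to 40831 RPM in activated KO and 30009 to 40163 RPM in activated WT libraries. They took 105711 to 109181 RPM in resting KO and 95039 to 105749 RPM in resting WT libraries of that cohort. Acly itself had 11.3, 10.6 and 15.0 RPM in activated KO cells, against 104, 111 and 109 RPM in activated WT cells, as the labels say. In resting cells it averaged 4.70 ± 3.48 RPM in KO and 8.20 ± 2.13 RPM in WT (SD, n = 3 each). That difference did not pass the test, so the transcript does not verify the genotypes at rest. In the Pdha1 cohort 2 libraries stood against their labels. The library labelled KO resting 3 had 771 RPM of CD4 markers and 66035 RPM of receptor genes, against 174 to 259 and 104047 to 107772 RPM in the other KO resting libraries. The library labelled WT activated 3 had 260 and 105016 RPM, against 960 to 1086 and 26265 to 71983 RPM in the other WT activated libraries. Pdha1 RNA was 30.4, 27.4 and 20.0 RPM in activated KO cells and 84.7, 40.8 and 5.35 RPM in activated WT cells. As labelled, the transcript thus did not separate the genotypes of activated cells. The overlap came from WT activated 3 alone, and the other WT activated libraries lay above all activated KO libraries. In resting cells Pdha1 averaged 11.1 ± 13.3 RPM in KO and 5.31 ± 1.92 RPM in WT (SD, n = 3 each). Markers of red cells and platelets summed to 599 to 32768 RPM in the Pdha1 cohort and 21.2 to 1204 RPM in the Acly cohort. Their part in the results was not tested, and less RNA per cell and fewer cells of a type cannot be told apart in such bulk samples.

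**Figure D1:**
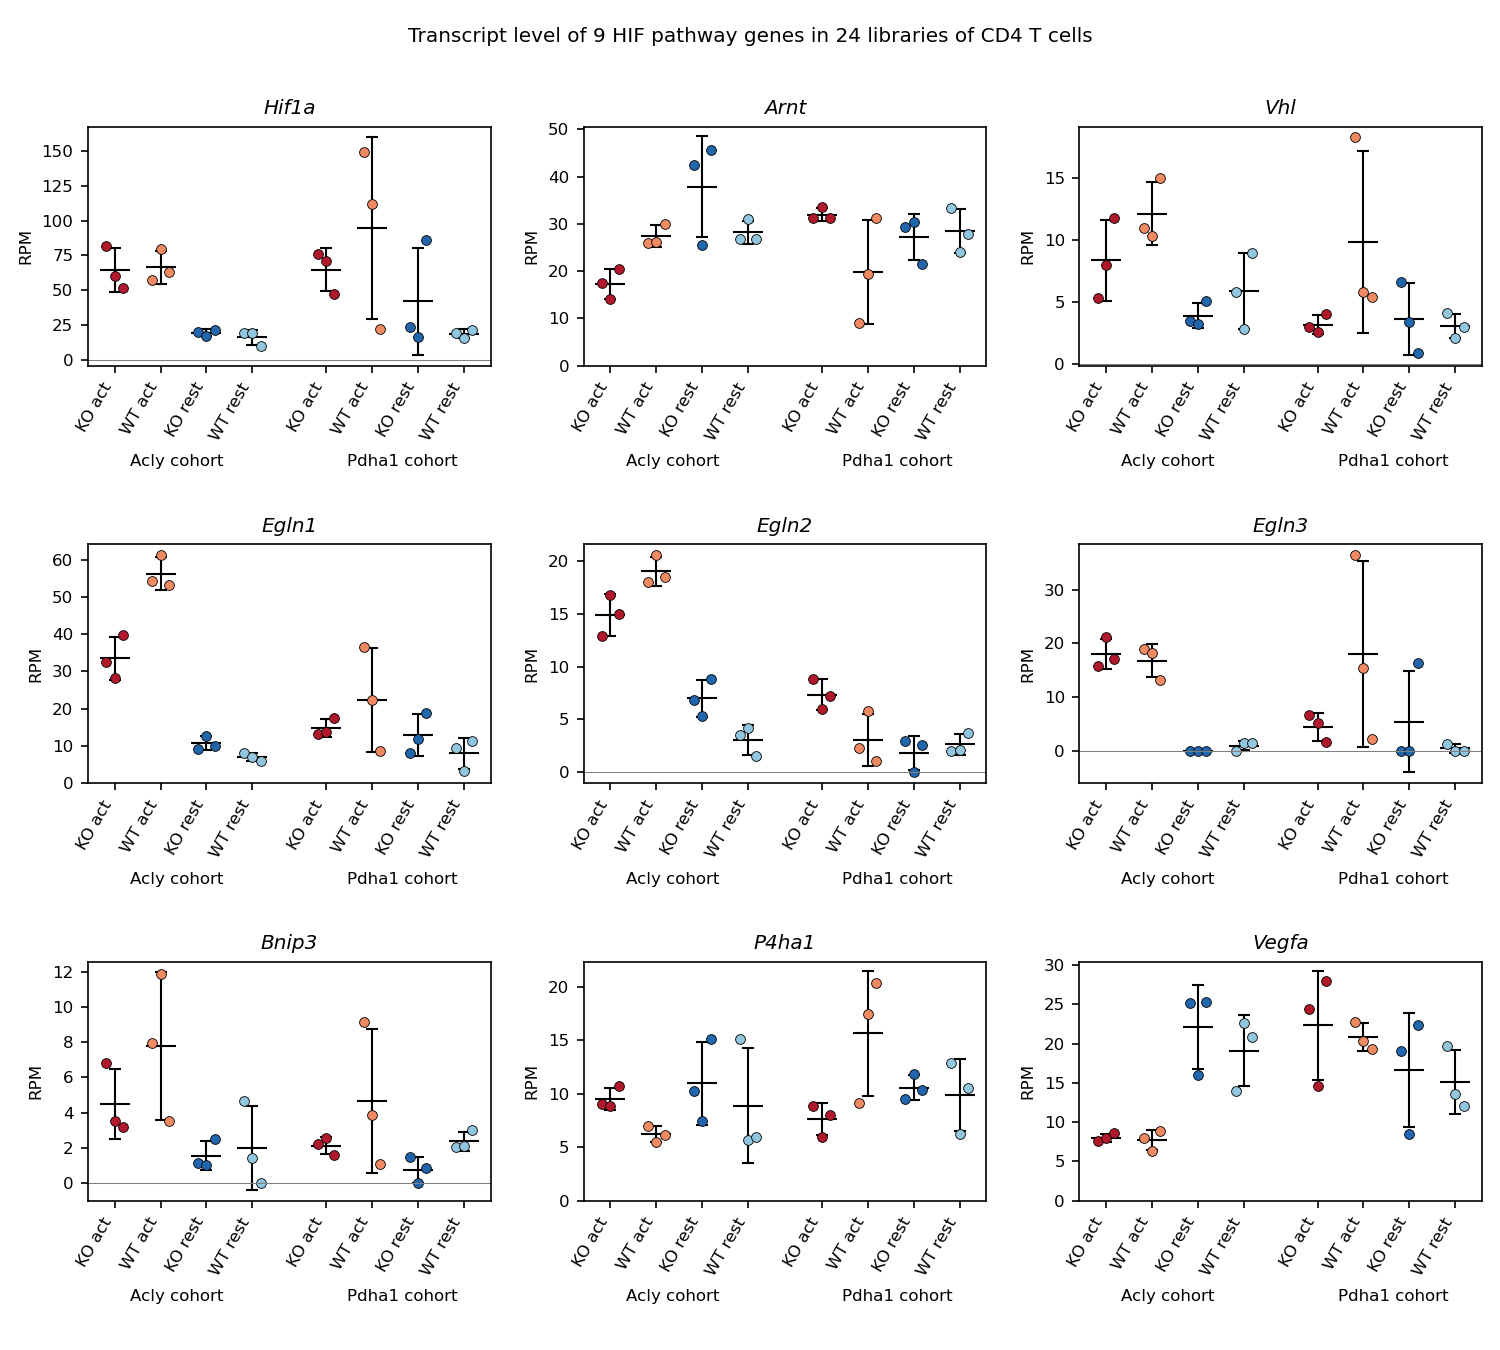
Level of each of the 9 genes in RPM (y axis, linear, a separate scale per gene) in every library. Points are libraries, the long dash is the mean of 3 libraries and the bar 1 SD. In the Acly cohort Hif1a, Egln1, Egln2 and Egln3 sit higher in activated than in resting cells of the same genotype, Vegfa sits lower, and in the Pdha1 cohort WT activated spreads over 22.5 to 149 RPM of Hif1a.

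In the Acly cohort, the RNA of HIF-1 alpha and of its hydroxylases was higher in activated than in resting T cells. Hif1a, Egln1 and Egln3 rose in KO cells, and Hif1a, Egln1, Egln2, Egln3 and Bnip3 rose in WT cells, while Vegfa fell in both genotypes and Arnt fell in KO cells. That is 3 of 9 genes higher and 2 lower in KO cells, where 20.7% of all 31311 genes tested passed as higher and 26.7% as lower. In WT cells it is 5 higher and 1 lower, where 21.4% passed as higher and 23.8% as lower. Under TMM-style scaling the split was 5 higher and 0 lower in KO cells and 6 higher and 0 lower in WT cells. With so many genes called, the shares of 9 are read only as a description. The test was limma on log2(RPM + 0.5), adjusted over all genes. The median change of all genes tested was -0.67 in KO and -0.61 in WT cells on the log2 scale, and under TMM-style scaling, which sets the libraries to a common level of most genes, it was -0.39 and -0.29.

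Hif1a (ENSMUSG00000021109, chr12:73901375-73947530, plus strand) encodes the oxygen-labile alpha subunit. It had 81.8, 60.4 and 51.6 RPM in activated KO cells, against 20.6, 17.1 and 21.5 RPM in resting KO cells. It had 57.2, 79.9 and 63.0 RPM in activated WT cells, against 19.8, 19.8 and 10.4 RPM in resting WT cells. All 6 activated libraries lay above all 6 resting ones. On the log2 scale the change was 1.67 ± 0.31 in KO cells (standard error, limma, adjusted p = 2.96e-05) and 2.01 ± 0.31 in WT cells (adjusted p = 1.223e-06).

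Arnt (ENSMUSG00000015522, chr3:95434388-95497240, plus strand) encodes the stable partner that pairs with the alpha subunits. Activated KO cells had 17.4, 14.1 and 20.4 RPM, against 42.4, 25.6 and 45.6 RPM in resting KO cells. Activated WT cells had 26.0, 26.1 and 30.1 RPM, against 26.7, 31.1 and 26.9 RPM in resting WT cells. The KO groups did not overlap and the WT groups did. Arnt fell by 1.08 ± 0.32 on the log2 scale in KO cells (limma, adjusted p = 0.005511). Arnt no longer passed with TMM-style scaling (-0.57, adjusted p = 0.1167) and with edgeR on recovered counts (-0.56, adjusted p = 0.1192).

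Egln1 (ENSMUSG00000031987, chr8:124908587-124949324, minus strand) encodes PHD2, the main HIF hydroxylase in most tissues. It had 32.6, 28.3 and 39.7 RPM in activated KO cells, against 9.14, 12.8 and 10.1 RPM in resting KO cells. It had 54.2, 61.3 and 53.2 RPM in activated WT cells, against 8.12, 7.05 and 5.96 RPM in resting WT cells. Every activated library exceeded every resting library, and the activated WT libraries were the highest of the 24. The log2 change was 1.61 ± 0.34 in KO cells (limma, adjusted p = 0.0001708) and 2.92 ± 0.34 in WT cells (adjusted p = 2.681e-09).

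Egln2 (ENSMUSG00000058709, chr7:27158658-27166802, minus strand) encodes PHD1, a largely nuclear hydroxylase. Activated KO cells had 12.9, 16.8 and 15.0 RPM, against 6.86, 5.32 and 8.83 RPM in resting KO cells. Activated WT cells had 18, 20.6 and 18.5 RPM, against 3.48, 4.23 and 1.49 RPM in resting WT cells. Neither genotype's groups overlapped. Egln2 rose by 2.54 ± 0.46 on the log2 scale in WT cells (limma, adjusted p = 1.695e-05), and in KO cells the change of 1.05 ± 0.46 did not pass (adjusted p = 0.05523). The KO change passed under TMM-style scaling (1.55, adjusted p = 0.005372) and with edgeR (1.63, adjusted p = 0.0004324).

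Egln3 (ENSMUSG00000035105, chr12:54178981-54203860, minus strand) encodes PHD3, whose gene is itself a HIF target in many cells. It had 15.9, 21.2 and 17.1 RPM in activated KO cells and no count in any resting KO library. It had 19.0, 18.2 and 13.2 RPM in activated WT cells, against 0, 1.41 and 1.49 RPM in resting WT cells. Expression was thus detected in each activated library and stood at 1 count or less in each resting one. The 3 counts that an observed 0 still allows came to 3.47 RPM, averaged over the 3 resting KO libraries. Against that limit Egln3 was at least 5.22-fold higher in activated KO cells (limma, adjusted p = 1.381e-08). In WT cells the ratio was 18.8 (95% interval from counting 4.96 to 159, from 57 against 2 counts), and limma gave an adjusted p of 7.958e-06.

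Vhl (ENSMUSG00000033933, chr6:113623959-113631633, plus strand) encodes the part of the ubiquitin ligase that recognises hydroxylated HIF alpha. Activated KO cells had 5.29, 7.94 and 11.8 RPM, against 3.43, 3.19 and 5.04 RPM in resting KO cells. Activated WT cells had 11, 10.3 and 15.0 RPM, against 5.80, 2.82 and 8.94 RPM in resting WT cells. The activated libraries were higher in each genotype with no overlap, at counts as low as 2 in a library (WT resting 2). The KO gap (5.288 against 5.043 RPM) was smaller than 1 count. The WT gap (10.27 against 8.936 RPM) was smaller than 1 count of WT resting 3, which was worth 1.489 RPM. The log2 changes of 0.97 ± 0.52 in KO and 1.09 ± 0.52 in WT cells did not pass (limma, adjusted p = 0.1202 and 0.08123), and the WT change was 0.69 without WT resting 2. Both passed under TMM-style scaling (1.44 with adjusted p = 0.01585 in KO, 1.54 with adjusted p = 0.01069 in WT) and with edgeR (adjusted p = 0.01054 in KO and 0.003737 in WT).

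Bnip3 (ENSMUSG00000078566, chr7:138890836-138909519, minus strand) encodes a mitochondrial receptor of mitophagy and is a classic HIF target. It had 6.80, 3.53 and 3.21 RPM in activated KO cells, against 1.14, 1.06 and 2.52 RPM in resting KO cells. It had 7.98, 11.9 and 3.52 RPM in activated WT cells, against 4.64, 1.41 and 0 RPM in resting WT cells. The WT groups overlapped, and 15 of the 24 libraries lay at or below 3 counts. Bnip3 rose by 2.14 ± 0.74 on the log2 scale in WT cells (limma, adjusted p = 0.01642). The call ended without WT activated 1 (adjusted p = 0.05482), without WT activated 2 (adjusted p = 0.1011) or without WT resting 3 (1.26, adjusted p = 0.1559). In KO cells the change was 1.27 ± 0.74 (adjusted p = 0.1506 with limma and 0.01751 with edgeR).

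P4ha1 (ENSMUSG00000019916, chr10:59323296-59373304, plus strand) encodes a catalytic subunit of collagen prolyl 4-hydroxylase, an enzyme of the same cofactor family that acts on procollagen, and is a HIF target in several cell types. It had 9.07, 8.82 and 10.7 RPM in activated KO cells, against 10.3, 7.45 and 15.1 RPM in resting KO cells. It had 6.98, 5.53 and 6.17 RPM in activated WT cells, against 15.1, 5.64 and 5.96 RPM in resting WT cells. Activated and resting libraries overlapped in both genotypes, and neither comparison passed the test.

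Vegfa (ENSMUSG00000023951, chr17:46016993-46032369, minus strand) encodes the secreted vascular growth factor that is the best known HIF target outside metabolism. Activated KO cells had 7.56, 7.94 and 8.56 RPM, against 25.2, 16.0 and 25.3 RPM in resting KO cells. Activated WT cells had 7.98, 6.32 and 8.81 RPM, against 13.9, 22.6 and 20.9 RPM in resting WT cells. All 6 activated libraries lay below all 6 resting ones, the reverse of Hif1a. Vegfa fell by 1.38 ± 0.40 on the log2 scale in KO cells (limma, adjusted p = 0.004164) and fell by 1.24 ± 0.40 in WT cells (adjusted p = 0.009953). Under TMM-style scaling neither call held (adjusted p = 0.05142 in KO and 0.08529 in WT), and with edgeR the fall passed in KO cells (-0.89, adjusted p = 0.04424) but not in WT cells (-0.77, adjusted p = 0.1136). The summed receptor genes changed by -1.63 in KO and -1.55 in WT cells on the log2 scale of their group means. Their part in the lower Vegfa and Arnt of activated cells was not tested.

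**Figure D2:**
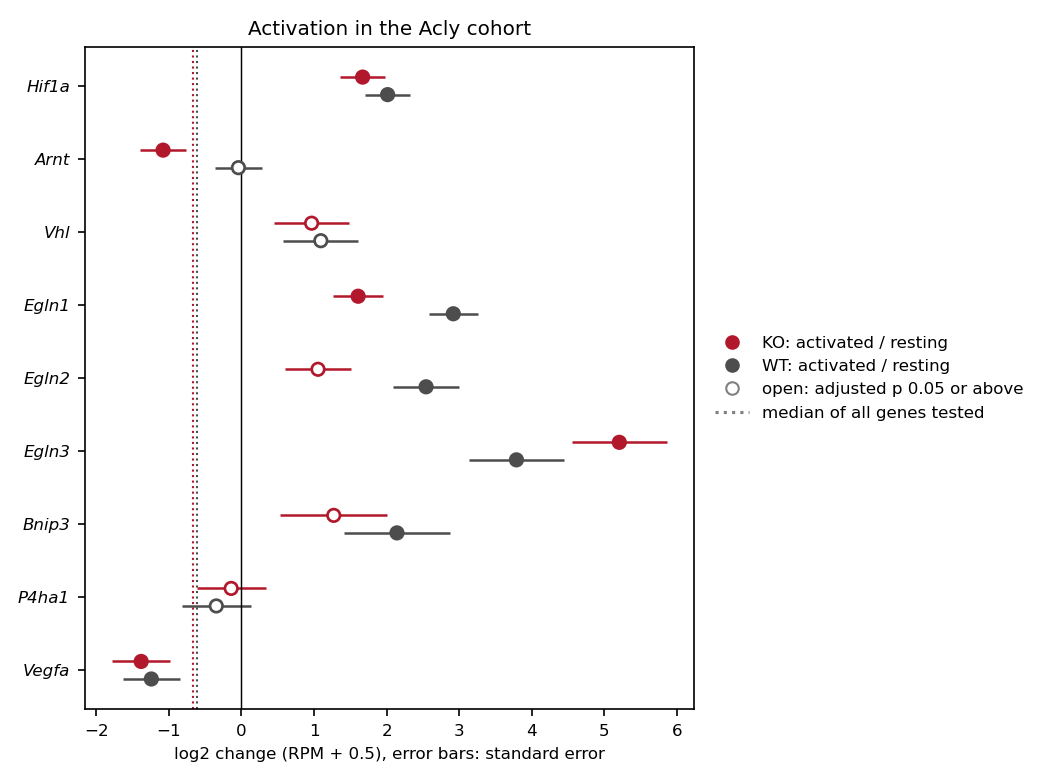
Log2 change of each gene in activated against resting cells of the Acly cohort (x axis) for KO (red) and WT (grey), with standard errors as bars. Filled points passed an adjusted p of 0.05, and the dotted lines are the medians of all genes, -0.67 and -0.61. Egln3 lies farthest right in both genotypes, where the KO point is set against a group with no counts and depends on the pseudocount, and Vegfa lies left of the medians.

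Between Acly KO and WT cells none of the 9 transcripts passed the threshold, in activated or in resting cells, which does not show that their levels are alike. In activated cells limma called 2 of 31311 genes, Acly and Thy1, which is 0.00639%, with 1087 genes at an unadjusted p under 0.05. Thy1 encodes a surface marker of T cells and fell to 166 ± 12.1 RPM in activated KO cells, against 406 ± 71.0 RPM in activated WT cells (SD, n = 3 each, limma, adjusted p = 0.03316), a call that did not hold under TMM-style scaling (adjusted p = 0.2884). Replicate numbers deviated together in these 2 groups, and with the number as a block 5 genes passed, again none of the 9. With edgeR 16 genes passed, none of the 9 either.

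Some of the 9 nevertheless separated the 2 genotypes of activated cells without overlap. Egln1, Egln2 and Arnt were lower in each activated KO library than in each activated WT library, and P4ha1 was higher. That is 3 of 9 lower, where 7.38% of all genes lay apart in this direction, and 1 of 9 higher, where 3.56% did. Egln1 averaged 33.5 ± 5.76 RPM in KO and 56.2 ± 4.44 RPM in WT activated cells (SD, n = 3 each), a log2 change of -0.75 ± 0.34 (limma, unadjusted p = 0.03399, adjusted p = 1). Arnt averaged 17.3 ± 3.11 RPM in KO and 27.4 ± 2.30 RPM in WT activated cells, a change of -0.66 ± 0.32 (unadjusted p = 0.04571, adjusted p = 1). Egln2 changed by -0.35 ± 0.46 and P4ha1 by 0.58 ± 0.47, each with an adjusted p of 1. Summed CD4 markers were also lower in activated KO than in activated WT cells, as given above, and their part was not tested. For Hif1a, Vhl, Egln3, Bnip3 and Vegfa the activated KO and WT libraries overlapped.

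In resting cells the 2 genotypes lay apart for Egln1 and Egln2, both higher in KO cells. That is 2 of 9, where 3.33% of all genes lay apart as higher and 3.74% as lower. The Egln1 gap (9.145 against 8.123 RPM) was smaller than 1 count. The Egln2 gap (5.322 against 4.229 RPM) was smaller than 1 count of WT resting 2, which was worth 1.409 RPM. The resting WT libraries held only 3, 3 and 1 counts of Egln2. The Egln2 change was 1.14 ± 0.46 on the log2 scale (limma, unadjusted p = 0.0172, adjusted p = 0.7135), at 6.86, 5.32 and 8.83 RPM in KO and 3.48, 4.23 and 1.49 RPM in WT resting cells. The Egln1 change was 0.56 ± 0.34 (adjusted p = 0.9556). Of all genes, 0 passed in this comparison (0%), with 1745 at an unadjusted p under 0.05, and edgeR called 1, which is none of the 9.

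The signs of Egln1 and Egln2 thus differed between resting and activated cells, and the interaction of genotype and activation tests this directly. It was -1.31 ± 0.48 for Egln1 (limma, unadjusted p = 0.009501), -1.49 ± 0.65 for Egln2 (unadjusted p = 0.02684) and -1.04 ± 0.45 for Arnt (unadjusted p = 0.02715). All had an adjusted p of 0.9999, and no gene of the table passed (0%, with 1313 at an unadjusted p under 0.05 and 6 called by edgeR, none of the 9). The smaller rise of Egln1 and Egln2 on activation in KO cells is therefore not shown to differ from that in WT cells.

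**Figure D3:**
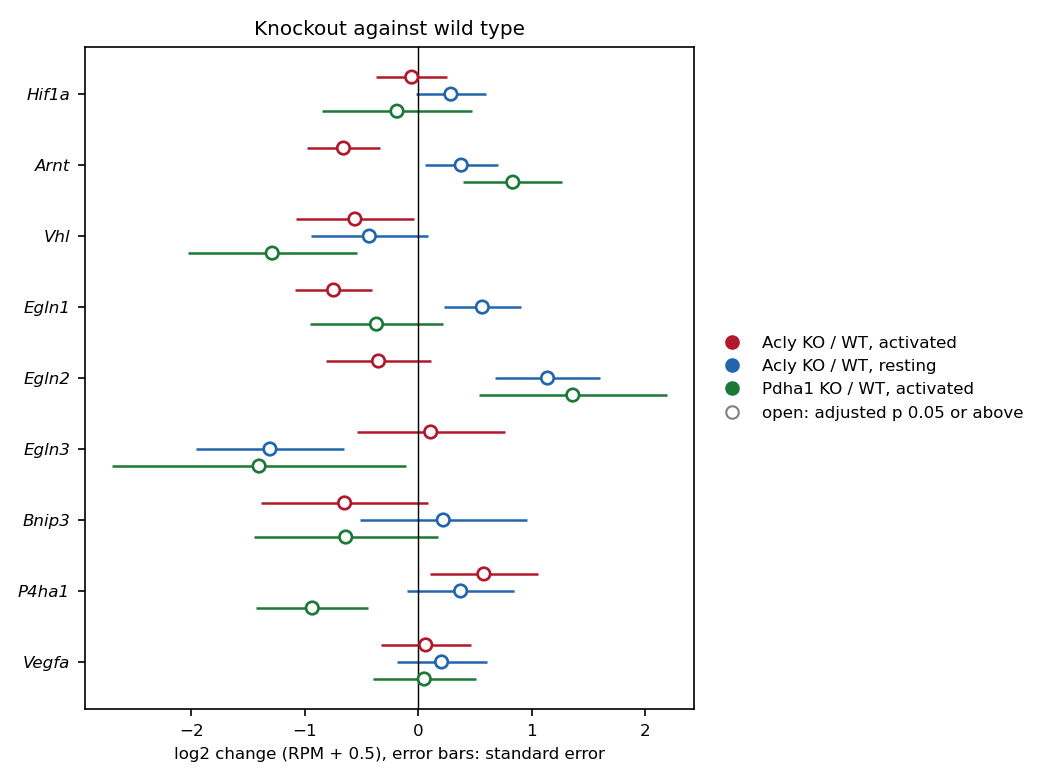
Log2 change of each gene in KO against WT cells (x axis), for activated (red) and resting (blue) cells of the Acly cohort and activated cells of the Pdha1 cohort (green), with standard errors as bars. All points are open because no change passed an adjusted p of 0.05. The Egln1 and Egln2 points lie left of 0 in activated and right of 0 in resting cells of the Acly cohort.

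In the Pdha1 cohort, in which the groups were taken as labelled, none of the 9 genes passed in any comparison. The libraries labelled KO resting 3 and WT activated 3 carry much of the spread. Hif1a had 76.2, 70.7 and 47.4 RPM in activated KO cells, against 23.5, 16.9 and 86.1 RPM in resting KO cells. It had 149, 112 and 22.5 RPM in activated WT cells, against 19.7, 15.7 and 21.8 RPM in resting WT cells. KO resting 3 lies among the activated libraries and WT activated 3 beside the resting ones. Egln3 showed the same order, with 6.65, 5.13 and 1.59 RPM in activated KO and 0, 0 and 16.4 RPM in resting KO cells. In WT cells Egln3 had 36.5, 15.5 and 2.14 RPM when activated and 1.35, 0 and 0 RPM at rest.

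**Figure D4:**
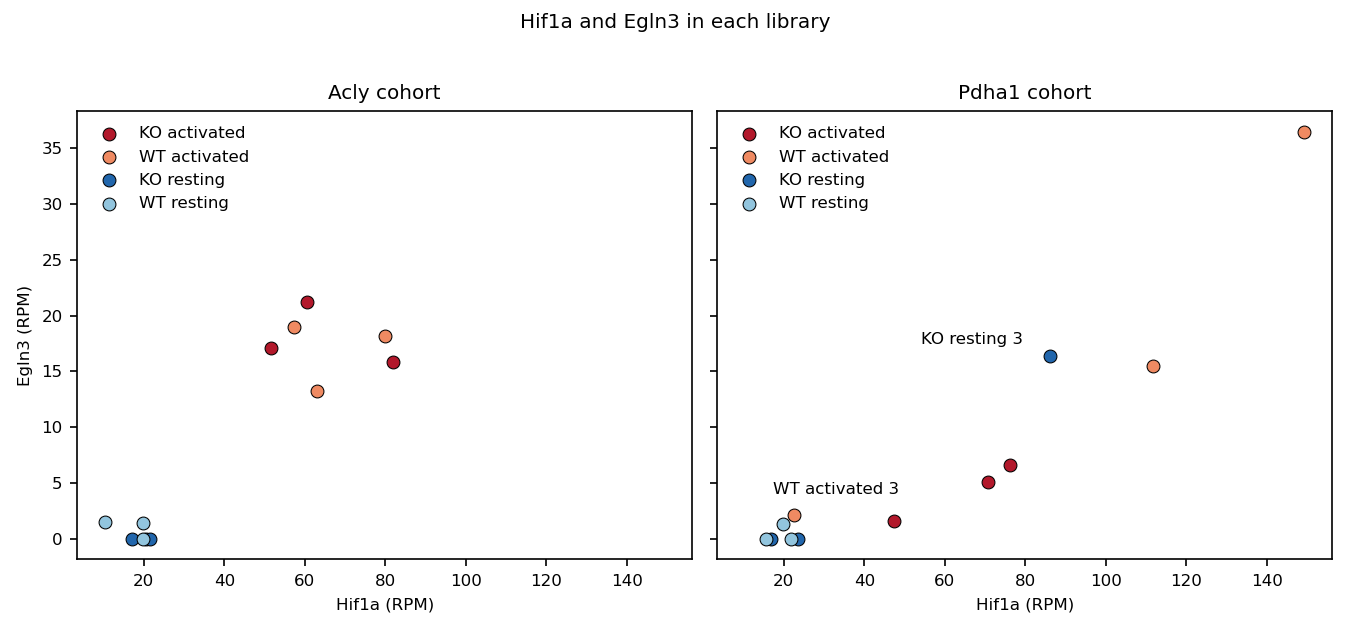
Egln3 level (y axis, RPM) against Hif1a level (x axis, RPM) in each library, with the Acly cohort left and the Pdha1 cohort right. In the Acly cohort the 6 activated libraries sit apart from the 6 resting ones. In the Pdha1 cohort KO resting 3 (86.1 RPM of Hif1a) sits among the activated libraries and WT activated 3 (22.5 RPM) beside the resting ones.

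With all 12 libraries, limma called no gene of 30357 for activation in KO cells (0%, 873 at an unadjusted p under 0.05) or in WT cells (0%, 4315), and edgeR called none. KO resting 3 and WT activated 3 were left out after they stood against their labels in CD4 markers and receptor genes, which change with activation. Leaving them out therefore favours calls on activation, and the calls without them are read only as a description. Without the 2 libraries, Hif1a rose by 1.65 ± 0.37 (limma, adjusted p = 0.008171) on the log2 scale in KO cells, and so did Egln3 (3.13 ± 0.86, adjusted p = 0.02986), whose remaining resting KO libraries held no count, so that the size depends on the pseudocount. That is 2 of 9 genes higher, where 7% of 29032 genes tested passed as higher and 0.152% as lower. In WT cells Hif1a rose by 2.74 ± 0.37 (limma, adjusted p = 3.987e-05), Egln1 by 1.95 ± 0.52 (adjusted p = 0.01201) and Egln3 by 4.97 ± 0.86 (adjusted p = 0.0004259), the last against 2 counts in all. That is 3 of 9 genes higher, where 14.9% passed as higher and 12.1% as lower. WT activated 1, 1 of the 2 WT activated libraries left, had the smallest depth of all, 388902 counts, and 29832 RPM of red cell and platelet markers.

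With all 12 libraries, Arnt, Egln2 and Bnip3 lay higher and P4ha1 lower in activated than in resting KO cells without overlap. In WT cells Hif1a, Vhl and Egln3 lay higher when activated. None passed the threshold, and the share of all genes lying apart was not computed for these comparisons. The KO gaps of Arnt (31.15 against 30.44 RPM), Bnip3 (1.595 against 1.464 RPM) and P4ha1 (8.868 against 9.53 RPM) were smaller than 1 count. For Hif1a in WT cells the gap was 22.53 against 21.84 RPM. For Egln3 in WT cells it was 2.141 against 1.355 RPM, at 2 counts in WT activated 3 and 2 counts in WT resting 1. Egln1 had 13.3, 13.7 and 17.6 RPM in activated KO and 36.5, 22.3 and 8.57 RPM in activated WT cells, against 8.06, 11.8 and 18.9 RPM in resting KO and 9.50, 3.13 and 11.3 RPM in resting WT cells. Egln2 had 8.87, 5.98 and 7.18 RPM in activated KO cells and 0 to 5.80 RPM in the other 9 libraries, and its activation change in KO cells was 2.16 ± 0.83 (limma, unadjusted p = 0.01801, adjusted p = 0.9784), and 1.26 without KO resting 2. Vegfa had 14.6 to 28.0 RPM in activated KO and 19.3 to 22.8 RPM in activated WT cells, against 8.44 to 22.4 RPM in resting KO and 12 to 19.7 RPM in resting WT cells. Its activated and resting libraries overlapped in KO and in WT cells, unlike in the Acly cohort. Vhl stood at 0.859 to 18.2 RPM and Bnip3 at 0 to 9.12 RPM over the 12 libraries, each highest in WT activated 1.

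Between activated KO and activated WT cells of the Pdha1 cohort, Arnt and Egln2 lay apart as higher and Vhl and P4ha1 as lower in KO cells. That is 2 of 9 in each direction, where 3.99% of all genes lay apart as higher and 1.74% as lower. Arnt had 31.1, 33.5 and 31.2 RPM in activated KO cells, against 9.12, 19.4 and 31.1 RPM in activated WT cells, a log2 change of 0.83 ± 0.44. The gap between WT activated 3 and the lowest KO library was smaller than 1 count, and without WT activated 1 the change was 0.37. The Egln2 change was 1.36 ± 0.83, that of Vhl was -1.29 ± 0.74 and that of P4ha1 was -0.94 ± 0.49, all with an adjusted p of 1 (limma). Without WT activated 1 the Vhl change was -0.75, and without WT activated 3 the Egln2 change was 0.89. P4ha1 stood at 8.87, 5.98 and 7.98 RPM in activated KO cells, against 9.12, 17.4 and 20.4 RPM in activated WT cells. Its gap to WT activated 1 was smaller than 1 count. So was the gap of Egln2, with 5.98 RPM in the lowest KO and 5.80 RPM in the highest WT library. Over all genes limma called none in activated cells (0%, 856 at an unadjusted p under 0.05), in resting cells (0%, 636) or for the interaction (0%, 701), and edgeR called none in any of these.

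The directions of Arnt, Egln2 and P4ha1 in activated KO against WT cells were opposite in the 2 cohorts. A single fit of all 24 libraries, added after these directions had been seen, tested the Acly change minus the Pdha1 change. It was -1.49 ± 0.55 for Arnt (limma, unadjusted p = 0.009543), -1.71 ± 0.94 for Egln2 (unadjusted p = 0.07475) and 1.51 ± 0.70 for P4ha1 (unadjusted p = 0.0371), each with an adjusted p of 1. No gene of 35290 passed (0%, 1141 at an unadjusted p under 0.05; edgeR was not run on this difference).

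Over the 8 groups, the order of the levels differed by gene. Background differed between these groups as well. The summed receptor genes took 30009 to 40831 RPM in activated Acly libraries and 75145 to 88998 RPM in Pdha1 KO activated libraries. In Pdha1 WT activated libraries they took 26265 to 105016 RPM. Their part in the order was not tested. For Hif1a the 4 activated groups had the highest means, 64.6 to 94.5 RPM, and the resting groups 16.6 to 42.2 RPM, with each group's range overlapping that of its neighbour in the order. For Egln1, Acly WT activated cells (56.2 RPM) and then Acly KO activated cells (33.5 RPM) stood apart from each other, and the rest overlapped in turn down to 7.04 RPM in Acly WT resting cells. For Egln2 the order was Acly WT activated, Acly KO activated and Pdha1 KO activated cells, at 19.0, 14.9 and 7.34 RPM, each apart from the next. Acly KO resting cells (7 RPM) stood apart from Acly WT resting cells (3.07 RPM), by less than 1 count of the nearest WT library. Vegfa was lowest in Acly KO and Acly WT activated cells, at 8.02 and 7.70 RPM, apart from the next group in the order, Pdha1 WT resting cells (15.1 RPM). The 6 other groups overlapped in turn between 15.1 and 22.3 RPM, and the lowest library of Pdha1 KO resting cells, at 8.44 RPM, lay within the range of both activated Acly groups. Arnt means ran over 17.3 to 37.9 RPM, P4ha1 means over 6.22 to 15.6 RPM and Vhl means over 3.05 to 12.1 RPM, with every neighbour overlapping. The order of Egln3 broke between Pdha1 KO activated cells (4.46 RPM) and Acly WT resting cells (0.966 RPM), and that of Bnip3 between Acly KO activated cells (4.51 RPM) and Pdha1 WT resting cells (2.38 RPM). The nearest libraries at both breaks lay less than 1 count apart, at 1.595 and 1.489 RPM for Egln3 and 3.207 and 3.003 RPM for Bnip3. All these values are levels of a gene across groups. No level is compared between genes, since it is not known which stretch of a transcript the reads cover.

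Across the 24 libraries, which share the contrast of activated and resting cells and differ in depth, the members followed each other unequally. The Pearson correlation of log2(RPM + 0.5) was 0.87 between Hif1a and Egln3, 0.81 between Egln1 and Egln3 and 0.78 between Hif1a and Egln1. It was -0.57 between Hif1a and Arnt, -0.19 between Hif1a and Vegfa and -0.07 between Hif1a and P4ha1. Among 8542 protein-coding genes with a mean of at least 10 RPM, the levels most like those of Hif1a were those of Nars (0.965), Sla (0.959) and Cd69 (0.958), of which Cd69 is a surface marker of early T cell activation. For Egln1 they included Ogfod3 (0.953) and Tpm4 (0.95). For Arnt they were Prg4 (0.879), Slc41a3 (0.865) and Trim5 (0.855), and for Vegfa Ifi209 (0.813), Gas7 (0.812) and Bcl2l15 (0.784).

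Lists of further genes around the 9, which include them, moved in the Acly cohort mainly with activation, and no gene of these HIF lists passed in a comparison of KO with WT cells. The clearest group was the glycolytic HIF targets. In activated KO cells 14 of 20 rose and 1 fell, with a median log2 change of 2.82, and in activated WT cells 15 rose and 1 fell, with a median of 3.18, against the medians of all genes given above. Over all genes 20.7% rose and 26.7% fell in KO cells, and 21.4% rose and 23.8% fell in WT cells. Pgam1, the phosphoglycerate mutase, had 947 ± 54.8 RPM in activated KO cells, against 24.0 ± 10.1 RPM in resting KO cells (SD, n = 3 each, limma, adjusted p = 5.907e-21). Ldha, which makes lactate, had 998 ± 89.7 RPM in activated WT cells, against 78.3 ± 2.00 RPM in resting WT cells (adjusted p = 2.934e-18). The one that fell was Pdk1, the kinase that inhibits pyruvate dehydrogenase, with 37.4 ± 13.2 RPM in activated KO cells, against 85.6 ± 17.1 RPM in resting KO cells (adjusted p = 0.000756). Its fall in WT cells (adjusted p = 0.01632) did not pass under TMM-style scaling (adjusted p = 0.251).

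Among the HIF subunits, 1 of 5 rose (Hif1a) and 2 fell in each genotype, with a rise as frequent as over all genes (20.7% in KO, 21.4% in WT). Under TMM-style scaling 1 fell in KO cells. Epas1, the HIF-2 alpha subunit, fell to 17.4 ± 6.28 RPM in activated KO cells, against 49.8 ± 16.5 RPM in resting KO cells (limma, adjusted p = 0.0002606), and to 19.1 ± 3.63 RPM in activated WT cells, against 44.6 ± 6.85 RPM in resting WT cells (adjusted p = 0.002658). Both falls passed under TMM-style scaling too (adjusted p = 0.007928 in KO and 0.04465 in WT). Of 5 HIF hydroxylases, 3 rose in KO cells, and 4 rose and 1 fell in WT cells. Over all genes 20.7% rose and 26.7% fell in KO cells, and 21.4% rose and 23.8% fell in WT cells. Beside the EGLN genes the list holds Hif1an, the asparaginyl hydroxylase FIH, which had 22.4 ± 4.40 RPM in activated KO cells, against 6.16 ± 0.78 RPM in resting KO cells (adjusted p = 0.0004272). P4htm, a hydroxylase of the endoplasmic reticulum, was the one that fell in WT cells (adjusted p = 0.04678, and 0.1301 under TMM-style scaling).

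In the list of the VHL ligase and HIF stability, 6 of 11 genes rose in each genotype and 1 fell in KO cells. Over all genes 20.7% rose and 26.7% fell in KO cells, and 21.4% rose and 23.8% fell in WT cells. Under TMM-style scaling 7 of the list rose and 0 fell in each genotype. Eloc, a subunit of the ligase, had 93.7 ± 14.5 RPM in activated KO cells, against 8.16 ± 5.31 RPM in resting KO cells (limma, adjusted p = 5.703e-07). Siah2, a ligase that degrades EGLN proteins, had 32.2 ± 5.72 RPM in activated KO cells, against 3.18 ± 2.00 RPM in resting KO cells (adjusted p = 3.064e-07). Of 6 coactivators, 2 rose and 1 fell in KO cells and none passed in WT cells, counts that are read only as a description. Under TMM-style scaling 2 coactivators rose and 0 fell in KO cells, and 1 rose in WT cells. In the mitophagy receptor list, 2 of 5 rose in KO and 3 of 5 in WT cells, where 20.7% and 21.4% of all genes rose. Under TMM-style scaling 3 rose in each genotype, and these counts of 5 are read only as a description. Phb2 of this list had 169 ± 26.5 RPM in activated WT cells, against 9.26 ± 1.59 RPM in resting WT cells (limma, adjusted p = 6.776e-15).

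Of the collagen hydroxylases, 2 of 11 rose and 3 fell in KO cells, shares near the 20.7% and 26.7% of all genes, so the counts are no result about the list. In WT cells 1 rose and 3 fell, where 21.4% of all genes rose and 23.8% fell, and these counts too are read only as a description. Under TMM-style scaling 3 rose and 2 fell in KO cells, and 2 rose and 2 fell in WT cells. P4hb, the beta subunit of the enzyme and a general disulfide isomerase, had 95.5 ± 10.5 RPM in activated KO cells, against 6.08 ± 2.76 RPM in resting KO cells (limma, adjusted p = 3.606e-12). P4ha2, a paralog of P4ha1, fell to 32.5 ± 8.20 RPM in activated KO cells, against 120 ± 12.2 RPM in resting KO cells (adjusted p = 1.115e-06, and 0.0001414 under TMM-style scaling). Of 9 VEGF ligands and receptors tested, 4 fell in KO and 5 in WT cells, against 26.7% and 23.8% of all genes, with 1 rise in each. Under TMM-style scaling 3 fell in each. Flt1, a VEGF receptor of endothelium, fell to 5.33 ± 1.57 RPM in activated KO cells, against 28.7 ± 5.78 RPM in resting KO cells (adjusted p = 1.661e-05), and the riser was Vegfb, with 6.84 ± 2.17 RPM in activated KO cells, against 1.12 ± 1.14 RPM in resting KO cells (adjusted p = 0.008527). These falls go the same way as the summed receptor genes, and how far the background accounts for them was not tested.

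Of 19 other HIF targets tested, 9 rose and 2 fell in KO cells, where 20.7% of all genes rose and 26.7% fell. In WT cells 6 rose and 0 fell, where 21.4% of all genes rose and 23.8% fell. Fam162a, a mitochondrial protein, had 147 ± 3.24 RPM in activated KO cells, against 2.42 ± 2.28 RPM in resting KO cells (limma, adjusted p = 1.357e-16). Hilpda, a lipid droplet protein, had 36.7 ± 10.6 RPM in activated WT cells, against 1.66 ± 1.75 RPM in resting WT cells (adjusted p = 7.316e-09). Adm, which encodes adrenomedullin, fell to 2.71 ± 2.26 RPM in activated KO cells, against 14.1 ± 4.34 RPM in resting KO cells (adjusted p = 0.0007967). In the Pdha1 cohort without the 2 libraries that stood against their labels, 7 of 20 glycolytic targets rose in KO cells, against 7% of all genes, and 13 of 20 rose in WT cells, against 14.9%, and none fell. Leaving out these 2 libraries favours calls on activation, as said above, so the counts are read only as a description. Of other targets, 2 of 18 rose in KO cells, near the share of all genes, and 9 rose and 1 fell in WT cells, where 12.1% of all genes fell.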

How the data were processed

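RNA of 24 libraries was prepared with a stranded total RNA kit and read as 75 bp single ends, per the labels' protocols. The authors deposited a table of RPM, in which each library sums to 1000000; builds GRCm38 and mm10 are named in the submitters' processing notes, and aligner, counter and gene models were not given in the sources used here. Inverting a collision correction for 4096 identifiers made every value of all libraries a whole count within 0.01 (100% of values), although the labelled protocol names no identifiers, so the library type is not known. Symbols and positions came from GENCODE M21, which matched 46206 identifiers, and promoters from RefSeq.

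The main test was limma 3.58.1 in R 4.3.3 (trend, robust) on log2(RPM + 0.5) of genes that reached 1 RPM in 3 or more libraries, which kept all 9 genes in both cohorts. The 12 libraries of a cohort shared a fit, and Benjamini-Hochberg adjusted p-values had a threshold of 0.05. The pseudocount understates folds of low genes. Alternatives were pseudocounts of 1 and 0.1, no filter, TMM-style scaling, a replicate block, edgeR 4.0.16 (quasi-likelihood) on recovered counts, each library left out, and the Pdha1 cohort without 2 libraries. The difference between cohorts was added after seeing the data. The fits were tested on simulated data.

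The 9 members and the 15 lists (134 symbols, all in the table) were chosen with earlier results of these data known. Named were the 9 genes, Acly, genes of the lists called between genotypes, and up to 3 called genes of a list per direction of each activation contrast with the smallest adjusted p, of which examples are printed. For members with a mean of at least 10 RPM, the 3 genes most like them were named, except 1 that is not reported here. Sums over 1450 protein-coding receptor genes measured background.

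Replicate numbers are shared across groups. Deviations from group means correlated for every pair of equal numbers in 3 of the 8 comparisons of 2 groups that were made: at 0.105 to 0.236 for activated Acly KO against WT, 0.114 to 0.278 for Acly WT activated against resting, and 0.192 to 0.608 for activated Pdha1 KO against WT. They also did for 1 pair of groups not compared (Acly KO activated and WT resting, 0.117 to 0.234). The labels do not say what a number marks.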

Additional observations from a re-analysis of the deposited data

Results flagged for a closer look

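In activated cells, all 3 KO libraries of the Acly cohort lay below its WT libraries for Arnt and for Egln2, and all 3 KO libraries of the Pdha1 cohort lay above its WT libraries, by a gap smaller than 1 count for each gene (for Arnt, to WT activated 3). The Acly change minus the Pdha1 change (KO against WT, log2) was -1.493 for Arnt and -1.713 for Egln2. P4ha1 lay the other way, higher in Acly KO and lower in Pdha1 KO cells, with a difference of 1.512. Its gap in the Pdha1 cohort was also smaller than 1 count, with 8.87 RPM in the highest KO library and 9.12 RPM in WT activated 1. In KO cells, activation went with lower Arnt in the Acly cohort and higher Arnt in the Pdha1 cohort, with a difference of -1.328 (limma, unadjusted p = 0.02002, adjusted p = 0.1872). The Pdha1 KO change behind it was 0.25 (adjusted p = 0.9876), and 0.09 without KO resting 3. The Vegfa difference on activation, whose Pdha1 groups overlap, was -1.85 in KO cells (adjusted p = 0.1152) and -1.72 in WT cells (adjusted p = 0.4282). None of these differences passed a threshold of 0.05 after adjustment, and each test was added after the directions had been seen. Without the library WT activated 1 of the Pdha1 cohort, the Arnt change in activated Pdha1 KO against WT cells was 0.37, against 0.83 with it.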

How the results depend on the processing

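Of 717 recomputed log2 changes of the 9 genes, over 39 results, 686 kept their direction and their side of the threshold, 22 newly passed, 8 no longer passed and 1 reversed: Egln3 on activation of Pdha1 KO cells, at -0.40 with edgeR (the cause was not tested). Of the members, 0 were called between genotypes or for an interaction under any alternative. Genes called in activated Acly KO against WT cells were 2, and 1 with a pseudocount of 0.1, 8 with no filter, 1 with TMM-style scaling, 5 with a replicate block, 16 with edgeR and 1 to 4 with a library left out. In resting cells they were 0, and 4 with a pseudocount of 0.1, 17 with no filter, 2 with a replicate block, 1 with edgeR and 0 to 119 with a library left out (119 without WT resting 3). For the Acly interaction they were 0, and 4 with no filter, 1 with the block, 6 with edgeR and 0 to 1 with a library left out. In the Pdha1 cohort they were 0, and 2 with no filter both for activated KO against WT and for the interaction. Without KO resting 3 and WT activated 3 they were 2 for activated KO against WT, 1 at rest, 2 for the interaction, 2075 for activation of KO cells (2 members) and 7825 for activation of WT cells (3 members). The choice of these libraries, made by values that change with activation, favours the activation calls. Leaving out single libraries gave 0 to 4338 genes and 0 to 3 members for activation of WT cells (4338 and 3 without WT activated 3) and 0 to 1 for the interaction. On activation, the split of calls in Acly KO cells was 6483 higher and 8363 lower, and 7656 and 5162 under TMM-style scaling. In Acly WT cells it was 6700 and 7447, and 7813 and 4563. The replicate block changed no other count of calls by over 1.5 times, and moved 1 member call, Egln2 in Acly KO activation (adjusted p = 0.04378). In the other 5 comparisons of 2 groups, equal numbers correlated at -0.612 to 0.492 with not every pair over 0.1, so they share only a number. Depth limits Vhl, Egln2, Egln3 and Bnip3, which lay at or below 3 counts in 7, 9, 13 and 15 libraries.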
